A study of Homo sapiens with 6 samples.

Results

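The RNA of TC32 cells that had received a control siRNA was described from 2 libraries, out of 6 libraries in the whole study. TC32 is an established human Ewing sarcoma cell line, so both libraries come from a single line rather than from a range of tumours. All cells of the study were grown in RPMI-1640 medium with fetal bovine serum and transfected, and total RNA was taken 48 h later. The described group carried siNeg, the control siRNA, and the other libraries carried siRNAs against EWSR1 or FLI1 and were not used here. The 2 siNeg libraries were chosen by their labels alone. Whether the replicates came from separate cultures is not stated in the labels, and the spread between them may be technical. With 1 group there was nothing to test, and all values below are levels in replicates 1 and 2, in that order.

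Most Ewing sarcomas join the gene of the RNA-binding FET protein EWSR1 to that of FLI1, an ETS transcription factor. The fusion protein EWS-FLI1 binds DNA at the ETS core GGAA and is known to activate genes that lie near repeats of this core, while other genes are lower in its presence. The tumour arises in bone and soft tissue, its cell of origin is debated between mesenchymal and neural crest progenitors, and it is diagnosed in part by the surface protein CD99 and the nuclear factor NKX2-2.

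Levels are in FPKM, fragments scaled to transcript length and to the size of the library, so that genes of different length can be set side by side. This does not hold for very short RNAs, whose FPKM is inflated. The deposited tables list 26931 gene symbols, of which 18984 matched a protein-coding gene. A gene is called expressed below at 1 FPKM or more in both libraries. That held for 11925 symbols (44.3%) and for 11028 protein-coding genes (58.1%), and each library alone had 12079 and 12133 such symbols. The median level was 2.86 FPKM over all protein-coding genes and 10.2 FPKM over the expressed ones. At the top, 506 protein-coding genes (2.67%) had a mean of 100 FPKM or more, and at the bottom 2562 (13.5%) were listed at 0 in both libraries. Under 0.1 FPKM in both libraries were 5434 protein-coding genes (28.6%). A listed 0 is not proof of absence, since RNU11, RNU12, RNU4ATAC and VTRNA1-1, small RNAs of every cell, were also listed at 0.

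The 2 libraries were close to each other. The median fold between them was 1.06 over genes with a mean of 1 FPKM or more. The deposited intervals of the 2 libraries failed to overlap for 1128 of 12136 such genes (9.29%), 564 higher in each library. This share rose with level, from 5.75% at 1 to under 10 FPKM to 11.6% at 10 to under 100 and 27.9% at 100 or more. The intervals are the authors' own and are narrow for some abundant genes, but their width does not follow level alone. In replicate 1 they ran from 2014 to 2189 FPKM for GAPDH and from 307.1 to 312.7 for CCND1.

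Genes known to mark Ewing cells were abundant, with the 5 markers of the line all in the upper part of the range. CAV1, which encodes the scaffold protein of caveolae, stood at 1178 and 1116 FPKM, a mean of 1147 ± 43.5 (SD, n = 2) and 112 times the median expressed gene. CCND1, the cyclin D1 of the G1 phase, stood at 309.95 and 304 FPKM (mean 307 ± 4.06). CD99, the diagnostic surface glycoprotein, stood at 303 and 308 FPKM (mean 306 ± 3.61), summed over 2 rows. These markers ranked 29, 138 and 140 among protein-coding genes. NR0B1, an orphan nuclear receptor and a textbook target of the fusion, stood at 204 and 234 FPKM (mean 219 ± 21.0, rank 186). HOXD10, a homeobox factor of the posterior body axis, stood at 82.5 and 71.0 FPKM (mean 76.7 ± 8.14, rank 696). In this order the values of neighbours did not overlap, except for CCND1 and CD99, which did not differ beyond their spread. NR0B1, CCND1 and HOXD10 differed between the libraries beyond the deposited intervals, NR0B1 toward replicate 2 and the others toward replicate 1. In hg19, CAV1 lies at 116164839 to 116201239 on chromosome 7, CCND1 at 69455873 to 69469242 on chromosome 11 and HOXD10 at 176981492 to 176984670 on chromosome 2. On chromosome X, CD99 lies at 2609174 to 2659350 and NR0B1 at 30322539 to 30327495.

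The start regions of 4 of these markers are shown for the ETS core that the fusion binds, from 250 bases before to 50 bases after the start in RefSeq (build GRCh38.p14, 5′ to 3′ on the gene's strand). Capitals mark GGAA, or TTCC where the core lies on the other strand. NR0B1 (minus strand, chrX:30309341-30309640) has 5 cores, CD99 (plus strand, chrX:2691045-2691344) has 2, CAV1 (plus strand, chr7:116524759-116525058) has 5 and HOXD10 (plus strand, chr2:176116528-176116827) has 2. HOXA10 (minus strand, chr7:27179812-27180111) is set beside HOXD10 as the same-numbered gene of another cluster that was under 0.1 FPKM in both libraries, and it has 5.
NR0B1: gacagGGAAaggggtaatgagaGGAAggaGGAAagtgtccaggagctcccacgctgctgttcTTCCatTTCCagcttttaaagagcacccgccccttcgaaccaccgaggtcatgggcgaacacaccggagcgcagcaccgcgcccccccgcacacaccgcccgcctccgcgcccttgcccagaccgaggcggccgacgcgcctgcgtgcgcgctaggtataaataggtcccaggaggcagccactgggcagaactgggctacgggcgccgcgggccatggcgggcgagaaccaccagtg
CD99: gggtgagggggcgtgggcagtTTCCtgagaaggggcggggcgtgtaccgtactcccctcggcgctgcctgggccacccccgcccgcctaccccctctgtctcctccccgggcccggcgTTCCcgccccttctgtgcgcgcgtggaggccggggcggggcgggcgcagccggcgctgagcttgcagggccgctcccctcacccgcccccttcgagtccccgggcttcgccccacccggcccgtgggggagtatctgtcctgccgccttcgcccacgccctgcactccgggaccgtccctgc
CAV1: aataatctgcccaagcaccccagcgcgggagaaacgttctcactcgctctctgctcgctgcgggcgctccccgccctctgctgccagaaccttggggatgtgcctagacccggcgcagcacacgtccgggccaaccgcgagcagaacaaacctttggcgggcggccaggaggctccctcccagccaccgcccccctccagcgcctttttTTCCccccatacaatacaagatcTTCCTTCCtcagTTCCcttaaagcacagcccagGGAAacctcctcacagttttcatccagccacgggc
HOXD10: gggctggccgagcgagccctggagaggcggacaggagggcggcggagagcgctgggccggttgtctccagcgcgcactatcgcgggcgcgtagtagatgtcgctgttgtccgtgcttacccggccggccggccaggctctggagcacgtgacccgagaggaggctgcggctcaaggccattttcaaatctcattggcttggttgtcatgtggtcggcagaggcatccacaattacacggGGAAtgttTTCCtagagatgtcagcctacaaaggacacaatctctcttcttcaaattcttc
HOXA10: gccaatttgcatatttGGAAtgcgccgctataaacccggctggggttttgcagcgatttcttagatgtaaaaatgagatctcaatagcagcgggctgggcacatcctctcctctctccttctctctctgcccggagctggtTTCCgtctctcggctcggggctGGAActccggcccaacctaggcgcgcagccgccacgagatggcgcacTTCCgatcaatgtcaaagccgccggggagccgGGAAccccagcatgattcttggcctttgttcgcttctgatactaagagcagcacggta

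At least 1 such core is common: 95.2% of the 15204 protein-coding start regions of this length held GGAA on either strand, with a median of 3. Back-to-back cores (GGAAGGAA, either strand, which also count as single cores) were in 3.57% of them, and of those shown in CAV1 alone. TATAAA on either strand, the core of the TATA box, was in 9.43% of all start regions and in those of NR0B1 and HOXA10. Over the 29 of 35 Ewing markers with a start region, 89.7% held GGAA, 3.45% held GGAAGGAA and 13.8% held TATAAA. These counts describe letters in a short window and show no binding. Repeats of the core outside this window were not examined, for NR0B1 or any other gene.

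Of 35 Ewing sarcoma markers, 30 were expressed (85.7%, beside 58.1% of protein-coding genes), 22 of them at 10 FPKM or more in both libraries, and none was listed at 0. The median of the list was 27.9 FPKM. This list, like the others, was chosen with earlier results of these data known, so its share is no independent evidence of abundance. Among surface proteins, ADGRG2, an adhesion G protein-coupled receptor, stood at 56.0 and 52.7 FPKM, and STEAP1, a membrane metalloreductase, at 28.9 and 27.9. IL1RAP, a co-receptor for interleukin 1, was lower at 10.6 and 9.63 FPKM, and NPY1R, a neuropeptide Y receptor, had 9.92 and 8.23. FCGRT, the neonatal Fc receptor, had 57.3 and 51.8 FPKM.

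Nuclear factors of the list spanned a wide range. ID2, an inhibitor of basic helix-loop-helix factors, had 271 and 254 FPKM, and RBM11, a splicing regulator, 75.9 and 73.0, although the row of RBM11 carries a failed status in replicate 2. EZH2, the histone methyltransferase of Polycomb complex 2, had 43.4 and 43.2 FPKM, and its partner JARID2 8.45 and 9.22. NKX2-2, the diagnostic homeobox factor, stood at 27.4 and 31.5 FPKM and was beyond the intervals higher in replicate 2. SOX2, a factor of neural and pluripotent cells, had 25.1 and 25.6 FPKM. BCL11B, a zinc finger repressor, had 11.6 and 11.7, with a failed status in replicate 1.

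Enzymes and secreted products were present too. UGT3A2, a glycosyltransferase, had 109 and 97.0 FPKM, PRKCB, a protein kinase C, 86.4 and 79.0, and LIPI, a lipase otherwise known from testis, 27.8 and 25.9. CCK, the gene of the gut and brain peptide cholecystokinin, had 60.6 and 53.5 FPKM, and PAPPA, a protease that cleaves IGF-binding proteins, 23.1 and 21.2. DKK2, a secreted WNT modulator, was at 6.96 and 7.33 FPKM. XAGE1B, a cancer-testis antigen, had 579 and 527 FPKM, and its near-identical copy XAGE1E 343 and 312, a split that the counting may have set. TERT, the catalytic subunit of telomerase, was just over the threshold at 1.28 and 1.505 FPKM.

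The 5 markers under 1 FPKM were PAX7 (0.42 and 0.459), a muscle and neural crest factor, CALCB (0.247 and 0.364), a neuropeptide, NPY (0.434 and 0.153), LOXHD1 (0.306 and 0.277) and GLI1 (0.14 and 0.146), a hedgehog effector. NPY was thus under 1 FPKM while its receptor NPY1R was expressed. Deposited intervals failed to overlap for 11 of the 30 expressed markers, 9 of them higher in replicate 1, and the largest fold between the libraries among expressed markers was 1.2, for NPY1R. By level these were 2 of 7 at 1 to under 10 FPKM, 5 of 16 at 10 to under 100 and 4 of 7 at 100 or more, beside the shares of all genes given above.

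Transcripts of both fusion partner genes were present at unequal levels. EWSR1 had 46.5 and 47.2 FPKM and FLI1 10.9 in both libraries, and these values add reads of normal and fusion transcripts. TAF15, another FET gene, was higher at 122.7 and 114 FPKM. Of the ETS genes that replace FLI1 in rarer fusions, ETV1 had 13.7 and 11.7 FPKM, ETV4 0.579 and 0.65, ERG 0.00382 and 0, and FEV was listed at 0.

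Genes that the fusion is known to repress were not silent. Of 20, 14 were expressed (70.0%, beside 58.1% of protein-coding genes), and the median of the 20, 2.48 FPKM, was near the 2.86 FPKM of all protein-coding genes. The matrix proteins TNC (189 and 196 FPKM) and TGFBI (117 and 119 FPKM) were high. JUN, an AP-1 factor, had 21.1 and 19.6 FPKM, EPHA2, an ephrin receptor, 12.3 and 11.6, and CTGF, a matricellular protein, 11.6 and 11.1. Near the threshold were IGFBP3, an IGF-binding protein (1.74 and 1.69 FPKM), LOX, a collagen cross-linking enzyme (2.25 and 2.42) and FOXO1, a forkhead factor (0.919 and 0.959). THBS1, a matrix glycoprotein, stood at 0.0217 and 0.0117 FPKM, KRT80, a keratin, at 0.0835 and 0.0526, and the cytokine gene IL6 was listed at 0.

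The most abundant protein-coding genes were those of the ribosome and of housekeeping metabolism. The 25 highest held 14.1% and 13.8% of all protein-coding FPKM and the 100 highest 29.0% and 28.6%. Of these 25, 17 encode ribosomal proteins, with RPL37A first at 5198 and 4808 FPKM, and RPL11 also high at 2704 and 2543. The remaining 8 were TMSB10, a thymosin that binds actin monomers (2300 and 2146 FPKM), the glycolytic enzymes GAPDH (2101 and 2115) and ENO1 (1583 and 1644), RACK1, a scaffold on the ribosome (1517 and 1465), FTL, the light chain of ferritin (1340 and 1338), B2M, the light chain of MHC class I (1376 and 1246), the elongation factor EEF2 (1236 and 1298) and ANXA1, a phospholipid-binding annexin (1269 and 1140). The marker CAV1 followed at rank 29. Ribosomal proteins together held 18.3% and 18.0% of protein-coding FPKM.

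Below these came cytoskeletal and lineage genes. LGALS1, a galactoside-binding lectin, had 1193 and 1136 FPKM. ACTG1, the cytoplasmic gamma actin, had 1002 and 996 FPKM, and ACTB, the beta actin, 636 and 694. TUBB, a beta tubulin, had 835 and 840 FPKM. The alpha tubulins TUBA1B (998 and 991) and TUBA1C (972 and 979) are near-identical and their split is uncertain. The list of 40 housekeeping genes was expressed in full, with a median of 383 FPKM and TBP, the TATA-binding protein, lowest at 11.6 and 12.2.

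**Figure D1:**
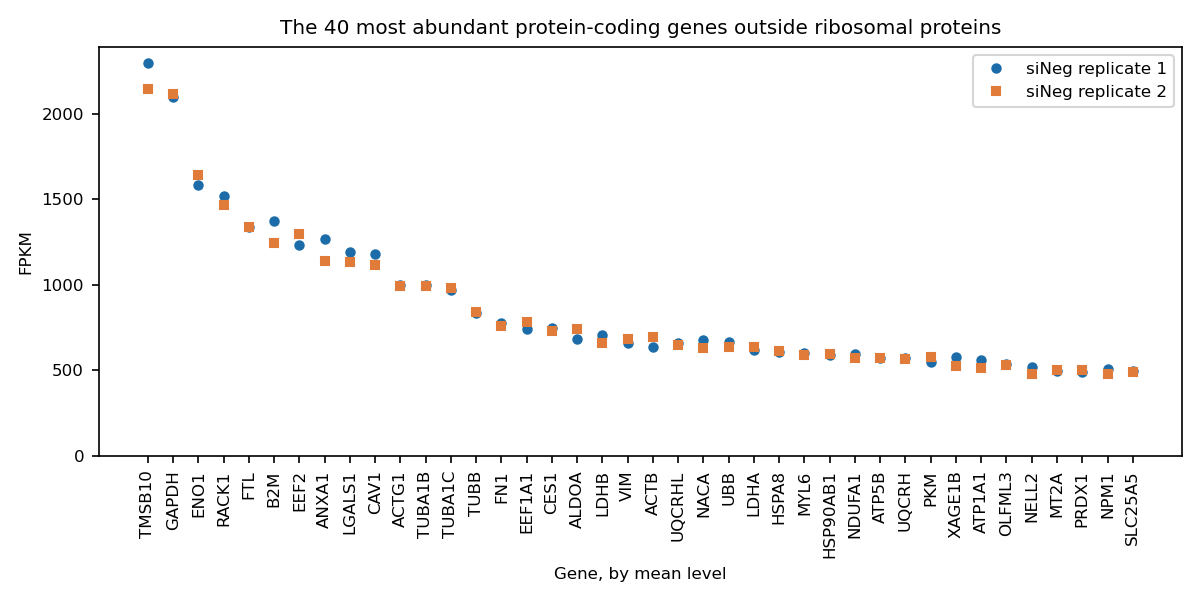
FPKM (linear axis) of the 40 most abundant protein-coding genes outside ribosomal proteins, ordered by mean level; circles are siNeg replicate 1 and squares siNeg replicate 2. TMSB10 and GAPDH are the highest, at 2101 FPKM or more in both libraries, CAV1 lies at 1178 and 1116, and FN1 (776 and 760) and VIM (659 and 684) lie among the tubulins, actins and glycolytic enzymes.

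Other ribosomal proteins shared this height but with exceptions. Of 89 cytosolic ribosomal protein genes, 84 were expressed (94.4%) with a median of 457 FPKM, and all 78 mitochondrial ribosomal protein genes were expressed with a median of 36.65. MRPL51 (228 and 213 FPKM) and MRPL37 (110 and 111 FPKM) were the highest of the latter. RPS26, RPL9 and RPL36A, which are components of every ribosome, were listed at only 10.6 and 9.70, 11.3 and 10.1, and 8.97 and 8.69 FPKM. These proteins have many processed copies in the genome, and the labels are silent on how reads with several matches were counted, so single ribosomal protein levels are uncertain.

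Genes of mesenchymal cells were the fullest of the lineage lists. Of 29, 21 were expressed (72.4%, beside 58.1% of protein-coding genes), 12 at 10 FPKM or more. The median was 7.50 FPKM, beside 2.86 FPKM over all protein-coding genes. FN1, the matrix protein fibronectin, had 776 and 760 FPKM, VIM, the intermediate filament vimentin, 659 and 684, and SPARC, a matricellular protein of bone, 258 and 243. Collagens were uneven: COL3A1 had 154 and 150 FPKM and COL1A1 6.90 and 8.09, whereas COL1A2, whose product pairs with that of COL1A1 in type I collagen, had 0.0293 and 0.0352. Over the 44 collagen genes 14 were expressed (31.8%), and COL3A1 was the only one at 100 or more. ACTA2, a smooth muscle actin, had 36.6 and 39.6 FPKM, THY1, a surface marker of stromal cells, 25.3 and 22.5, ZEB2, a repressor of epithelial genes, 22.4 and 21.0, and CDH11, a mesenchymal cadherin, 13.7 and 14.3. The fibroblast genes DCN (0.00644 and 0.0179) and POSTN (0.018 and 0.0097) were under 0.1 FPKM, and LUM and FAP were listed at 0. PDGFRB, a receptor of mural and stromal cells, had 11.8 and 12.9 FPKM and its relative PDGFRA 0.331 and 0.315.

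Of 25 neural crest genes, 13 were expressed (52.0%), 4 at 10 FPKM or more, with a median of 2.03 FPKM. Both values were near those of all protein-coding genes (58.1% and 2.86 FPKM), so the list as a whole did not stand out. HAND2, a factor of the heart and sympathetic lineage, had 40.8 and 49.4 FPKM, PAX3 23.3 and 21.5, SOX4 12.1 and 11.8, TFAP2A 10.4 and 11.4, and NGFR, the low-affinity neurotrophin receptor, 9.25 and 10.3. HAND2 was higher in replicate 2 beyond the deposited intervals. FOXD3 (2.71 and 3.11 FPKM), SNAI1 (2.46 and 2.796) and SOX9 (2.24 and 1.98) were nearer the threshold. Some genes of differentiated derivatives were under 0.1 FPKM. The Schwann cell and melanocyte factor SOX10 had 0.00958 and 0.062 FPKM and the melanocyte gene MLANA 0.058 and 0.0623. The catecholamine enzymes TH and DBH had 0.0369 and 0, and 0.0398 and 0.0752. The melanocyte genes PMEL (0.351 and 0.422 FPKM) and MITF (0.290 and 0.203) were low but over 0.1.

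Neural genes spanned the whole range of levels. Of 24, 10 were expressed (41.7%, beside 58.1% of protein-coding genes), 6 of them at 10 FPKM or more, and the median of the list was 0.244. In both libraries 11 were under 0.1 FPKM, beside 28.6% of protein-coding genes. UCHL1, a neuronal deubiquitinase, had 173 and 174 FPKM, ENO2, the neuron-specific enolase, 124 and 127, SCG2, a secretory granule protein, 33.3 and 30.7, and NCAM1, a neural adhesion molecule, 31.8 and 31.6. SYT1, a calcium sensor of synaptic vesicles, had 28.0 and 24.4 FPKM and TUBB3, a neuronal tubulin, 17.3 and 19.3. In the middle range were GAP43, a growth cone protein, at 9.88 and 9.73 FPKM, the neural progenitor filament NES at 1.79 and 2.16, the synaptic SNAP25 at 1.16 and 1.12, and SYP, a synaptic vesicle protein, at 0.594 and 0.85. The neurofilament NEFL (0.042 and 0.0756 FPKM) and the granule protein CHGB (0.0208 and 0.0337) were under 0.1, and CHGA, the neuronal RNA-binding protein ELAVL4, and the glial lineage factor OLIG2 were listed at 0. UCHL1 and ENO2 are also made by cells other than neurons.

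Markers of other cell types were mostly near 0. None of 14 skeletal muscle, 8 fat cell and 8 liver genes was expressed, and MYOD1, MYOG, FABP4, APOB and AFP were listed at 0. Among 22 blood cell genes 2 were expressed (9.09%, beside 58.1% of protein-coding genes). LCP1, an actin bundler of white cells that many tumour lines make, had 23.8 and 22.0 FPKM, and CD68, a lysosomal protein, 3.76 and 3.03. The defining blood genes PTPRC, CD3D, CD3E and HBB were listed at 0. Among 12 endothelial genes EGFL7, a secreted factor, stood alone at 24.7 and 26.6 FPKM, PECAM1 had 0.168 and 0.207, and VWF was listed at 0. Among 17 epithelial genes KRT18, a simple-epithelium keratin, had 20.7 and 20.6 FPKM and OCLN, of tight junctions, 5.78 and 5.401, whereas EPCAM (0.0337 and 0.109 FPKM) and CDH1 (0.0172 and 0) were low and KRT19 was listed at 0. In a bulk sample a few cells that express a gene and a little RNA in each cell cannot be told apart.

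**Figure D2:**
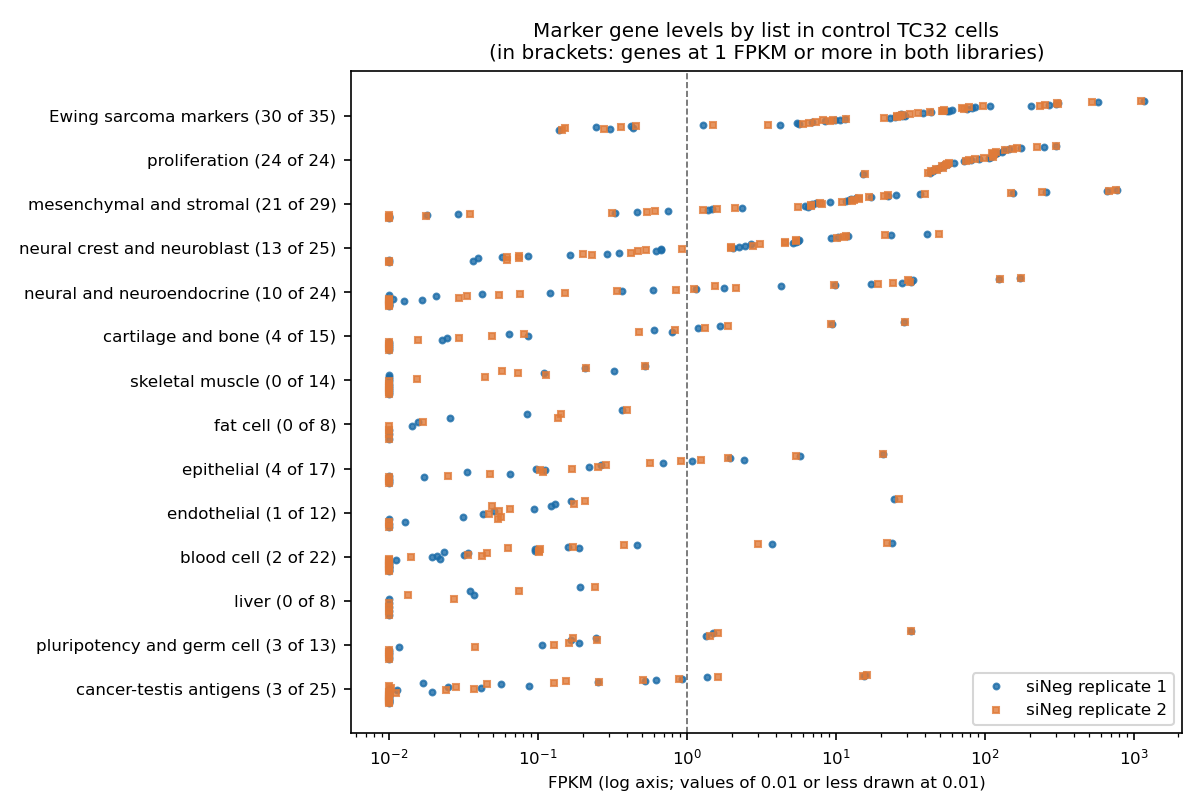
FPKM (log axis) of every gene of 14 marker lists, 1 row per list and 1 point per gene and library (circles, siNeg replicate 1; squares, siNeg replicate 2); values of 0.01 or less are drawn at 0.01 and the dashed line is at 1 FPKM. Ewing, proliferation and mesenchymal genes lie mostly right of the line, while muscle, fat and liver genes all lie left of it.

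Cartilage and bone genes were represented by regulators and not by matrix. Of 15, 4 were expressed (26.7%, beside 58.1% of protein-coding genes). Among the 4 were SOX6 at 9.51 and 9.33 FPKM, RUNX2, the master regulator of osteoblasts, at 1.69 and 1.90, and SOX5 at 1.19 and 1.34. The cartilage collagen COL2A1 had 0.0228 and 0.0157 FPKM, the bone factor SP7 0.0864 and 0.0496, and the bone matrix genes IBSP and DMP1 were listed at 0. Among pluripotency and germ cell genes 3 of 13 were expressed (23.1%, beside the same 58.1%). KIT, the receptor of stem cell factor, had 31.8 and 31.9 FPKM, SALL4 1.51 and 1.63, and LIN28B 1.34 and 1.44. NANOG was listed at 0, and POU5F1 had 0.166 and 0.251 FPKM, so that SOX2 was expressed without either.

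The HOX genes, homeobox factors that set position along the body axis, differed by cluster. Of 39 genes 24 were expressed (61.5%, near the 58.1% of protein-coding genes). By cluster these were 9 of 10 in B, 8 of 9 in C and 7 of 9 in D, but 0 of 11 in A. Summed over the cluster, HOXD genes had 239 and 227 FPKM, HOXB 141.8 and 142.7, HOXC 54.4 and 56.0, and HOXA 0.0161 and 0.00281. All 11 HOXA genes were under 0.1 FPKM in both libraries, and 8 were listed at 0. HOTTIP and HOTAIRM1, noncoding RNAs at the ends of the HOXA cluster, were also listed at 0, whereas HOTAIR of the HOXC cluster had 5.47 and 5.95 FPKM.

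Within each expressed cluster the highest gene was a posterior one, near the 5′ end. HOXD10 and HOXB13 were highest, and the values of HOXB13 (79.2 and 80.3 FPKM) lay between those of HOXD10. HOXD4 (36.9 and 41.9 FPKM) and HOXD13 (38.5 and 35.8) overlapped, and HOXD11 (29.0 and 26.9) followed. HOXC10 led its cluster at 25.1 and 23.7 FPKM. The pattern was not graded: HOXD12, between HOXD11 and HOXD13, had 0.138 and 0.224 FPKM, and HOXD1 0.0257 and 0.236. HOXB7 had 22.0 and 18.8 FPKM and HOXB2 10.5 and 10.2, while HOXB1 was listed at 0.

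**Figure D3:**
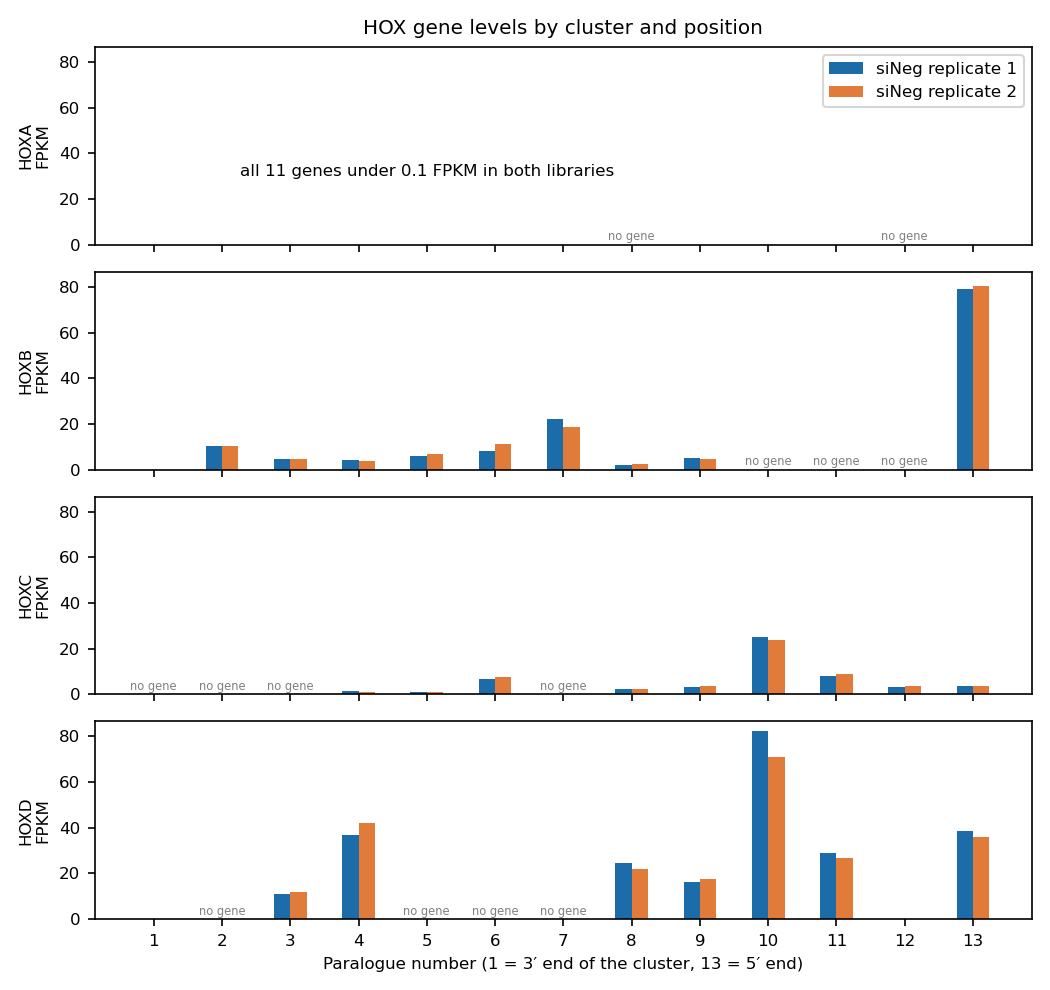
FPKM (linear axis from 0, shared scale) of the HOX genes by paralogue number, 1 panel per cluster; paired bars are siNeg replicates 1 and 2, and numbers without a gene are marked. HOXB13 and HOXD10 are the tallest bars, and the HOXA panel is empty because all 11 genes are under 0.1 FPKM.

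Other homeobox and developmental factors gave a mixed profile. TBX5, a T-box factor of forelimb and heart, had 78.4 and 82.8 FPKM, and its neighbour TBX5-AS1 28.6 and 26.8. DLX5, a factor of bone and craniofacial development, had 54.6 and 57.8 FPKM, and 7 of the 8 DLX and MSX genes were expressed (87.5%). POU3F2, a neural POU factor, had 53.1 and 56.8 FPKM, SOX1, a neural progenitor factor, 30.9 and 31.9, ZIC2 21.4 and 23.0, and PAX6, an eye and brain factor, 6.18 and 6.32. Expressed shares were 9 of 20 SOX (45.0%), 16 of 45 FOX (35.6%), 3 of 9 PAX (33.3%), 6 of 17 T-box (35.3%), 4 of 14 NKX (28.6%), 1 of 12 LIM homeobox (8.33%), 1 of 6 IRX and 1 of 6 GATA genes (16.7% each), all under the 58.1% of protein-coding genes. The last was GATA2, at 5.20 and 4.59 FPKM. Genes whose symbol begins with ZNF were the opposite case, with 428 of 528 expressed (81.1%). Their median was 3.16 FPKM, beside 2.86 FPKM over all protein-coding genes. Of 27 ETS factors 14 were expressed (51.9%), led by the repressor ERF at 21.8 and 22.0 FPKM, and ELF2 had 16.2 and 16.4.

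All 24 proliferation genes were expressed at 10 FPKM or more, with a median of 84.2. UBE2C, a ubiquitin-conjugating enzyme of mitosis, had 302 and 301 FPKM, TOP2A, the topoisomerase of dividing cells, 249 and 226, CCNB1, the mitotic cyclin B1, 176 and 165, and MCM7, a subunit of the replicative helicase, 147 and 154. MKI67, the gene of the Ki-67 antigen, had 53.4 and 51.8 FPKM. E2F1, a factor of S phase entry, was lowest at 15.2 and 15.7. Replication-dependent histones, by contrast, were expressed in 10 of 70 cases (14.3%), led by HIST1H2BK at 6.70 and 6.84 FPKM, and reads of near-identical histone copies cannot be separated. Whether the libraries were made by poly(A) selection, which misses most of these RNAs, is not stated in the labels.

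Tumour suppressors and inhibitors of the cell cycle, listed together with MDM2, were mostly expressed. The count was 14 of 16 (87.5%, beside 58.1% of protein-coding genes), with a median of 11.0 FPKM. MDM2, a ubiquitin ligase that is not a tumour suppressor, was among the 14, at 10.6 and 10.8 FPKM. CDKN1A, the cell cycle inhibitor p21, had 5.02 and 5.24. STAG2, the cohesin subunit often lost in these tumours, had 11.5 and 11.2 FPKM, and RB1 7.46 and 7.39. CDKN1B had 35.8 and 38.4 FPKM and CDKN2C 27.3 and 27.5. The 2 under 1 FPKM were CDKN2A, which encodes p16 and p14ARF, at 0.414 and 0.434 FPKM, and CDKN2B, which encodes p15, at 0.0417 and 0.0451. These levels do not show whether a transcript is mutated.

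These last genes lie side by side on chromosome 9, where several neighbours were also low. CDKN2A lies at 21967751 to 21994490 and CDKN2B at 22002902 to 22009312 (hg19). MTAP, a methionine salvage enzyme made by most cells, lies on their telomeric side and had 0.202 and 0.167 FPKM, and DMRTA1, on the other side, was listed at 0. CDKN2B-AS1, a noncoding RNA that overlaps CDKN2B, had 1.74 and 1.79 FPKM. Farther toward the telomere the levels were mixed: KLHL9 had 11.8 and 11.7 FPKM, FOCAD 18.4 and 17.6, and MLLT3 10.1 and 9.91, but HACD4, a fatty acid elongation enzyme between FOCAD and KLHL9, had 0.214 and 0.126. The interferon genes from IFNB1 to IFNE were all listed at 0, and over the genome 21 of 22 interferon genes were. ELAVL2, a neuronal gene on the centromeric side, had 0.0359 and 0.0232 FPKM. MTAP, DMRTA1, HACD4, FOCAD, KLHL9 and MLLT3 were named after seeing their values, and gene copy number was not measured.

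**Figure D4:**
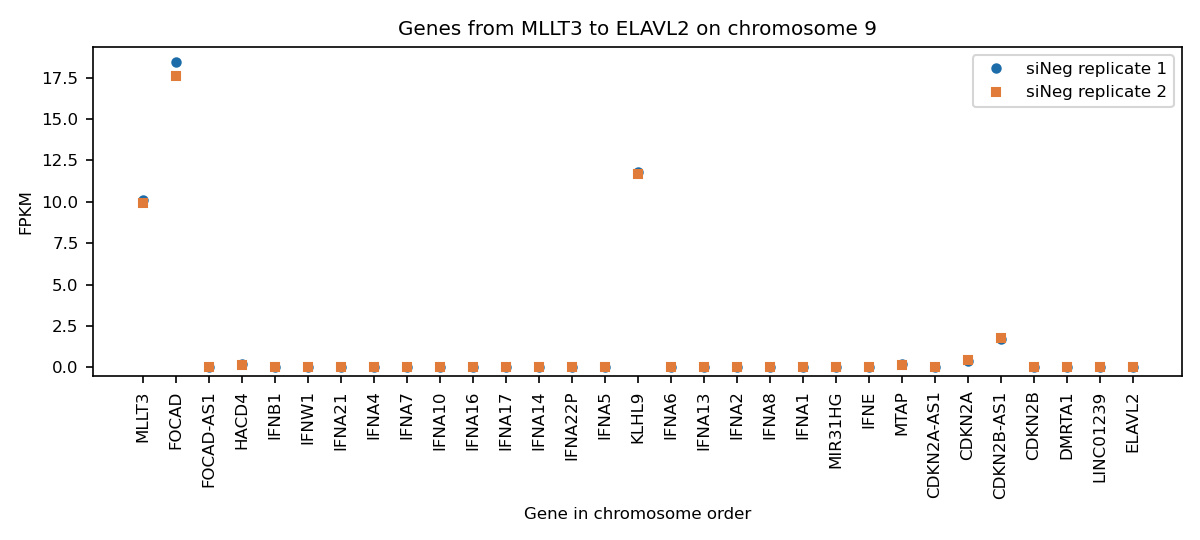
FPKM (linear axis) of genes from MLLT3 to ELAVL2 in chromosome order (hg19), with circles for siNeg replicate 1 and squares for siNeg replicate 2. MLLT3, FOCAD and KLHL9 stand at 9.91 to 18.4 FPKM, and CDKN2B-AS1, at 1.74 and 1.79, is the only other gene over 1.

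Growth factor receptors were led by KIT, followed by FGFR1 (23.0 and 26.2 FPKM), NTRK2, the receptor of brain-derived neurotrophic factor (15.9 and 14.3), and IGF1R (14.3 and 14.3), the receptor through which Ewing cells are known to depend on IGF1. Its ligand IGF1 had 4.24 and 3.52 FPKM, while the other ligand IGF2 had 0.0236 and 0.0255. EGFR had 0.0511 and 0.0527 FPKM and RET 0.0559 and 0.0695. ERBB2, of the EGFR family, stood at 9.82 and 10.9 FPKM, and ALK at 3.95 and 4.00. In all 19 of 28 oncogenes and growth factor receptors were expressed (67.9%, beside 58.1% of protein-coding genes). The RAS genes NRAS (22.8 and 21.7 FPKM) and HRAS (20.5 and 23.2) were expressed.

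Of 23 surface and immunotherapy target genes 19 were expressed (82.6%, beside 58.1% of protein-coding genes), with a median of 8.51 FPKM. Besides CD99, ADGRG2, NCAM1 and STEAP1, the list held PTK7, a pseudokinase of WNT signalling, at 42.8 and 43.3 FPKM, SLCO5A1, an organic anion transporter, at 23.1 and 25.9, and CD276, the checkpoint molecule B7-H3, at 11.6 and 12.1. CD274, which encodes PD-L1, had 0.209 and 0.118 FPKM. The ganglioside GD2 is made through a pair of enzymes. B4GALNT1, the GM2/GD2 synthase, had 4.23 and 4.09 FPKM, whereas ST8SIA1, the GD3 synthase upstream of it, had 0.0027 and 0.000582.

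MHC class I was expressed and class II was not. HLA-B had 136 and 146 FPKM and HLA-C 81.8 and 83.3, beside B2M among the most abundant genes. The peptide transporters TAP1 (14.7 and 15.0 FPKM) and TAP2 (10.2 and 9.60) and the proteasome subunit PSMB8 (29.6 and 26.4) were expressed. HLA-DRA, HLA-DRB1, HLA-DQA1 and CIITA, the master regulator of class II, were listed at 0. Reads of the HLA genes depend on how well the alleles of the line match the reference, so their levels are uncertain. Over the list 14 of 21 were expressed (66.7%, beside 58.1% of protein-coding genes).

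Cancer-testis antigens outside the XAGE1 copies were few. Of 25, 3 were expressed (12%, beside 58.1% of protein-coding genes). PRAME had 15.8 and 16.1 FPKM, SSX4 15.5 and 15.2 and SSX1 1.37 and 1.63. In both libraries 17 were under 0.1 FPKM, beside 28.6% of protein-coding genes. SSX4B, a near-identical copy of SSX4, was listed at 0.0042 and 0.00462, so that the split between them is uncertain. MAGEA4, PAGE1 and SYCP1 were listed at 0. Of 37 genes of the wider MAGE family 6 were expressed (16.2%), and the highest were the broadly expressed type II members MAGED1 (157 and 168 FPKM) and MAGED2 (44.8 and 44.1). Markers of other round cell tumours gave MYCN at 3.43 and 3.51 FPKM, and SMARCB1, whose loss marks rhabdoid tumours, at 68.2 and 67.6. WT1, fused to EWSR1 in desmoplastic tumours, was listed at 0. CCNB3, fused to BCOR in one such tumour, had 0.0354 and 0.0272 FPKM.

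Enzyme, chemokine and adhesion families each held a few high members among many low ones. Their expressed shares are to be set beside the 58.1% of protein-coding genes. CXCL14, a chemokine, had 410.1 and 354 FPKM and was beyond the deposited intervals higher in replicate 1, and 5 of 44 chemokines were expressed (11.4%). CYP4F22, a fatty acid hydroxylase known from skin, had 134.1 and 133.8 FPKM among 56 cytochrome P450 genes, of which 9 were expressed (16.1%). UGT3A2 and UGT3A1 (3.86 and 3.31 FPKM) were the 2 expressed of 22 UDP-glucuronosyltransferase genes (9.09%). PCDH17 (21.2 and 21.7 FPKM) led 7 expressed of 73 protocadherins (9.59%). Of 45 genes of the interleukin family 4 were expressed (8.89%), and the co-receptor IL1RAP is not among the 45. The alarmin IL33 had 12.4 and 11.1 FPKM and IL24 12.7 and 8.80.

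Gene families of specialised tissues were close to silent. Of 398 olfactory receptors 2 were expressed (0.503%) and 335 were listed at 0, the highest being OR4E2 at 7.45 and 7.12 FPKM and OR4E1 at 1.81 and 1.51. Of 94 keratin-associated protein genes of hair 2 were expressed (2.13%), KRTAP3-3 at 10.3 and 10.3 FPKM and KRTAP3-1 at 4.63 and 5.74. Of 56 keratins 3 were expressed (5.36%), KRT17 at 21.6 and 22.3, KRT18, and KRT10 at 3.81 and 4.28. Taste receptors had 1 of 27 over the threshold (3.70%), TAS2R20 at 2.06 and 2.57 FPKM, and beta-defensins 1 of 38 (2.63%), the pseudogene DEFB109P1 at 5.84 and 1.81. Of 22 interferons none was expressed and 21 were listed at 0. Over all symbols 25.8% were listed at 0 and 41.1% were under 0.1 FPKM in both libraries.

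Long noncoding RNAs were expressed in 379 of 3265 cases (11.6%) and listed at 0 in 1382 (42.3%), with 64.8% under 0.1 FPKM in both libraries. Small RNA genes were expressed in 44 of 2297 cases (1.92%) and listed at 0 in 2179 (94.9%), with 95.2% under 0.1 FPKM. Among the long noncoding RNAs reported here, LRRC75A-AS1, a host of small nucleolar RNAs, was highest at 965 and 895 FPKM. SNHG5 (359.8 and 334) and NEAT1, the scaffold of paraspeckles (328 and 352), followed. FEZF1-AS1, which lies against the gene of the neural factor FEZF1 (35.4 and 41.2), had 113 and 116 FPKM. The imprinted RNA H19 had 0.042 and 0.0695 FPKM and MEG3, from another imprinted region, 2.50 and 2.27. The strand setting of the counting is not stated in the labels, so reads of antisense RNAs and of the genes they overlap cannot be told apart.

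Start regions differed by level class in their first bases. A cytosine at the start followed by 4 pyrimidines, the form of the terminal oligopyrimidine tract by which mTOR is known to control translation of ribosomal protein mRNAs, was found in 4.68% of the 15204 start regions. The share was 4.28% for genes of 1 to under 10 FPKM, 5.73% for 10 to under 100 and 21.3% for 100 FPKM or more. TATAAA was in 5.16%, 4.52% and 9.72% of these classes. Start regions of expressed genes held a median of 26, 27 and 25 CpG in these classes, and fewer than 5 CpG were found in 5.67%, 2.95% and 1.42% of them, beside 15.9% of all. Classes under 1 FPKM and cytosolic ribosomal protein genes are not given, as fewer than 80% of their genes had a start region in the table. Of 89 cytosolic ribosomal protein genes, 65 were at 100 FPKM or more in both libraries. Their part in the 21.3% of the highest class was not tested. Among 79 keratin-associated protein genes, a family near 0 here, the median was 2 CpG and 79.7% held TATAAA. RPL37A, the most abundant protein-coding gene, is shown for its pyrimidine start (GRCh38.p14, plus strand, chr2:216498594-216498893, with the start base and the 4 that follow in capitals).
RPL37A: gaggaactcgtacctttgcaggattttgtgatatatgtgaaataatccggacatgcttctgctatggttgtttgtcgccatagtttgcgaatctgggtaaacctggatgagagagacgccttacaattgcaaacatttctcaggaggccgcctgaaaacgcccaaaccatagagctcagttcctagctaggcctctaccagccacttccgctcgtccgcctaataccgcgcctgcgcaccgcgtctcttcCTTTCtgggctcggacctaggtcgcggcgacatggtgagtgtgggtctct

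**Figure D5:**
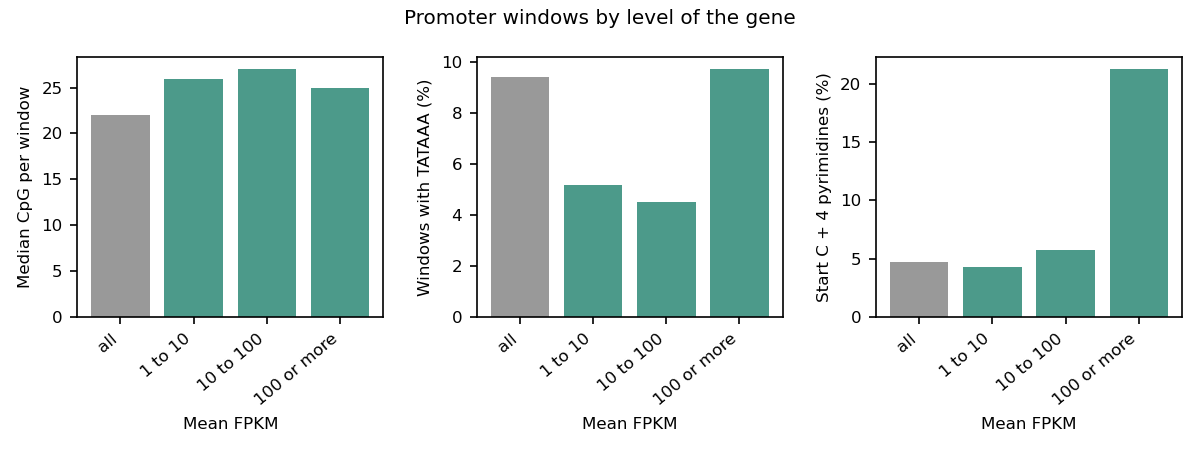
Median CpG count per 300-base start region, percent of start regions with TATAAA on either strand and percent with a start C followed by 4 pyrimidines (linear axes from 0), for all protein-coding genes with a start region and for 3 classes of mean FPKM. The pyrimidine start rises from 5.73% at 10 to under 100 FPKM to 21.3% at 100 or more.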

How the data were processed

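Gene tables of 2 libraries of TC32 cells with the control siRNA were used, and the other libraries were not. The values are FPKM per gene, which the authors deposited with 95% intervals and a status. Reads were processed with TopHat2 2.0.13, Cufflinks and Cuffdiff on hg19, per the submitters' processing notes. The annotation, library type, strand and treatment of reads with several matches were not given in the sources used here. Each FPKM value is relative to the library total, so very abundant RNAs shift all others.

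Rows were joined by gene and position, and values and interval bounds of the 380 symbols on more than 1 row were summed (27442 rows). Starts were converted to count from 1. Gene types came from a RefSeq table by symbol (24099) or synonym (1387), and 1445 symbols stayed unmatched. Intervals of rows with a failed status (1 and 2 rows) were not used. Gene lists were written from general knowledge, and the members and lists were chosen with earlier results of these data known. Named genes are the markers, the 25 highest protein-coding genes, and from each list or family the highest 6 and members under 0.1 FPKM. Some genes that this rule takes are not reported here, and other genes were named after their values were seen. Start regions are RefSeq's (GRCh38.p14), found for 80.1% of protein-coding genes, and no coordinate was moved between builds. Protein length was not analysed here. The summaries were tested on simulated data and made with Python 3.11.15 and pandas 2.3.3.

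No test was possible with 1 group, and depth limits low levels. Alternatives were other thresholds, TPM, the highest row in place of the sum, and leaving out each library.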

Additional observations from a re-analysis of the deposited data

How the results depend on the processing

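Listed zeros depended on the definition: 6935 symbols were listed at 0 in both libraries and 11064 were under 0.1 FPKM. The mean share of protein-coding FPKM held by the 25 highest protein-coding genes, 13.99%, was 13.7% with the highest row in place of the sum and 9.47% without ribosomal protein genes. Of 125 list counts under other settings, 120 stayed within 1.5 times. The others were cartilage and bone (4 to 2), epithelial (4 to 2) and pluripotency and germ cell genes (3 to 1) at 2 FPKM or more, and skeletal muscle (0 to 1) and cancer-testis genes (3 to 5) at 0.5 or more. Rescaling to TPM multiplied all values by 1.68 in replicate 1 and 1.47 in replicate 2, and CAV1 then had a mean of 1811. No paired analysis was possible because only 1 group was described. FPKM gives no fragment counts, so no limit is given for genes listed at 0.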

Other observations

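Several abundant genes outside the lists, named after their values were seen, belong to other tissues or to the nervous system. CES1, a carboxylesterase known from liver, had 750 and 728 FPKM, although no gene of the liver list was expressed. NELL2, a secreted neural protein, had 521 and 478 FPKM, OLFML3, a secreted olfactomedin-like protein, 539 and 528, and ALDH1A1, a retinal dehydrogenase, 504 and 476. OTX2, a homeobox factor of forebrain and eye, had 262 and 259 FPKM. IGFBP2, an IGF-binding protein, had 351 and 365 FPKM, and ITM2A, a membrane protein of cartilage and muscle, 449.8 and 406. PRAC1, a small nuclear protein known from prostate and colon whose gene neighbours HOXB13, had 453 and 411 FPKM, and its neighbour PRAC2 24.5 and 26.6.

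Small RNAs held 40.8% and 48.6% of the summed FPKM, and protein-coding genes 57.2% and 49.6%. Division by a very short length inflates FPKM, so these shares are no measure of how abundant small RNAs were. Some small RNAs were steady between the libraries. SNORD141A, a small nucleolar RNA summed over 3 rows, had 95907 and 92199 FPKM. RNU6-2, a spliceosomal small RNA summed over 11 rows, had 18081 and 16420. Others were not. MIR6087 was listed at 0 in replicate 1 and at 172999 FPKM in replicate 2 (interval 0 to 518996), and MIR3654 at 49113 and 0. Rows over 100 FPKM whose interval reaches down to 0 numbered 18 and 14 and held 20.1% and 31.5% of the sum.

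Of 923 protein-coding genes at 5 FPKM or more in the higher library whose intervals failed to overlap, 8 differed by over 1.5-fold and 3 by over 2-fold. RPL21, a ribosomal protein, had 0.00673 and 7.31 FPKM, RPL12 60.8 and 114, RPSA 159 and 89.4, EIF3CL, a near-copy of a translation initiation factor gene, 14.3 and 6.82, and the readthrough gene RBM14-RBM4 2.16 and 5.38. RPSAP58, a copy of RPSA, stood at 409 and 378 FPKM, above RPSA itself. The noncoding SNHG25 had 77.1 and 549 FPKM with wide intervals.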
